A study of Mus musculus with 8 samples.

Results

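Microglia and macrophages depend for their survival on signalling through the receptor encoded by Csf1r, which binds colony-stimulating factor 1 (M-CSF, encoded by Csf1) and interleukin 34 (encoded by Il34). Granulocyte-macrophage colony-stimulating factor (encoded by Csf2) acts through the alpha chain encoded by Csf2ra and the common beta chain encoded by Csf2rb, and granulocyte colony-stimulating factor (encoded by Csf3) acts through the product of Csf3r, best known from neutrophils. Insulin-like growth factor 1 (Igf1), transforming growth factor beta 1 (Tgfb1), platelet-derived growth factor B (Pdgfb) and oncostatin M (Osm) are secreted factors that leukocytes can release, and Tgfbr1 encodes a receptor chain for transforming growth factor beta, a signal known to maintain microglial identity. These 10 genes, 5 ligands and 5 receptors, were taken from a fixed list out of 30406 genes that all libraries measured, and they were followed from the cells that carried the ligand transcripts to the cells that carried the receptors.

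The cells were CD45+ leukocytes that a CD45 antibody given intravenously (CD45iv) had not stained, sorted from wild-type adult male C57BL/6 mice. Brain parenchyma, pia and dura were each sampled in controls and 24 h after transient occlusion of the middle cerebral artery (MCAO), and brain parenchyma also at 72 h. The control, pia, dura and 72 h groups held 1 library each and the 24 h brain group held 2, which makes 8 droplet libraries. Repeat experiments were pooled by compartment, so a library may hold several mice. The study's reporting summary gives a pooled total for each compartment. The number of mice in each library was not given in the sources used here. The controls of the sequencing were naive mice by the study's methods, although some of its legends name sham operation. The control library used as pia is brain by its title and pia by the rest of its labels.

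The libraries held between 6591898 and 20754181 unique molecular identifiers (UMIs, counts of single captured transcripts), with medians of 1083 to 2505 UMIs per annotated cell, and 32457 of 36854 cell barcodes carried a label from the authors' 21 clusters. Replicate 2 of brain at 24 h and the 72 h brain library were counted against a list of 31053 genes and the other 6 libraries against 32285 genes. The study lists kit version 3 for stroke dura and 72 h brain and version 2 for the other 6, which is a different split. Stroke and kit version therefore cannot be told apart in dura. The libraries of the longer list shared 10 to 32 annotated barcodes in each pair, and the shorter-list libraries shared 0 to 2 with them. Levels below are CPM, the UMIs of a gene in a sum scaled to a total of 1000000 UMIs, for sums of a library and cluster with at least 30 cells. They come from 3′ tags, so they do not scale with gene length, and they are compared between cells for the same gene. Intervals cover counting error only.

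Marker genes were checked against the cluster names before the levels were read. SAMC, the stroke-associated myeloid cells of the annotation, carried the SAMC markers Spp1, Fabp5, Gpnmb and Lpl at summed levels of 26995 to 108540. Granulo_2 carried neutrophil markers. Outside control pia, Granulo_1 carried mainly monocyte markers, whose sums reached 9423 in replicate 2 of brain at 24 h. In control pia the monocyte markers of Granulo_1 summed to 742 and its microglia markers to 1384. The cluster mDC1, named for dendritic cells, held a higher sum of monocyte markers than of dendritic markers in each library. The clusters named CAM, for macrophages associated with the central nervous system, differed by tissue. In the pia and dura libraries, the 5 border-macrophage markers (Mrc1, Pf4, Lyve1, Cd163 and Ms4a7) summed to between 4523 and 6953 in CAM_1. In the brain they summed to 41.9 in the control library and 6.66 in replicate 1 at 24 h, where 3 of the 5 were at 0, and the microglia markers summed to 21625 and 9922 in the same sums. Values for brain CAM clusters therefore belong to cells whose marker genes go against the name in those libraries. They are given by library where they are described, while means over libraries pool brain and border cells under the CAM names.

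**Figure D1:**
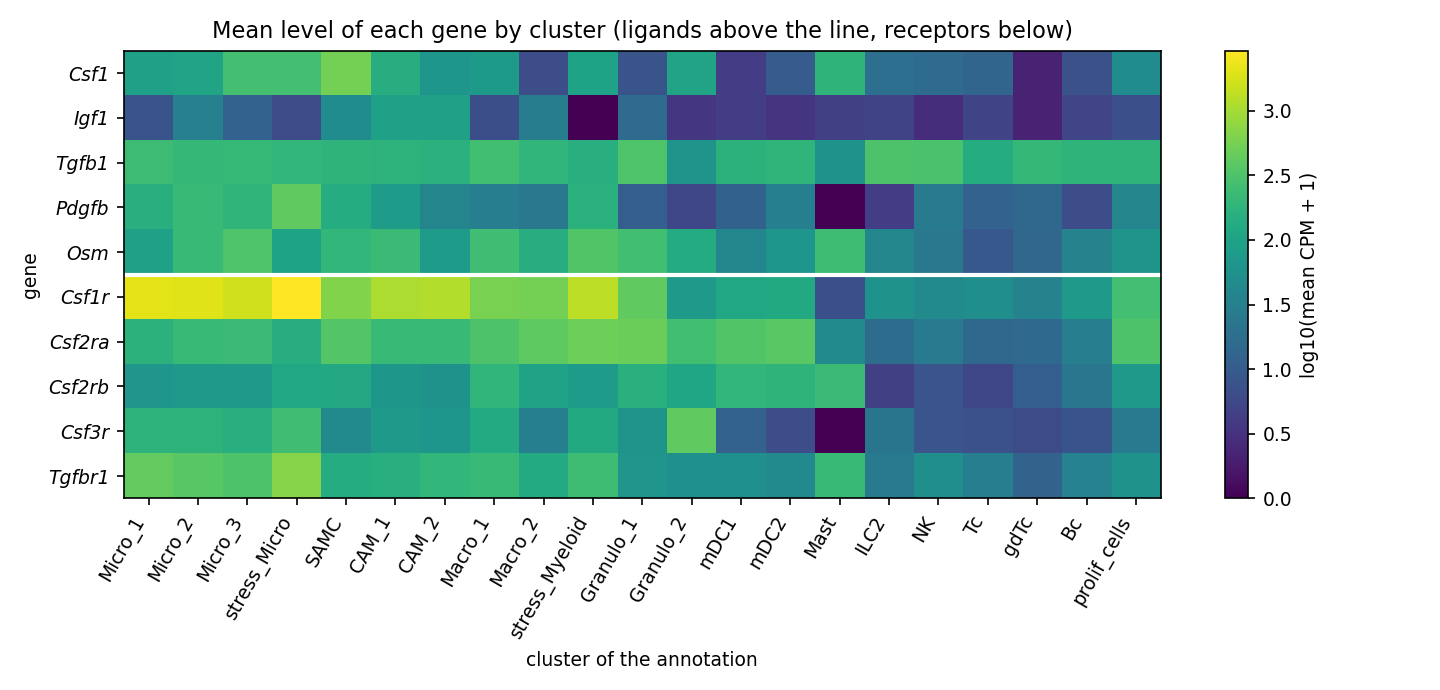
Mean level of the 10 genes (rows) in the 21 clusters of the annotation (columns), as log10 of the mean CPM plus 1 over libraries in which the cluster had 30 or more cells. The ligands stand above the white line and the receptors below it. Csf1r is brightest in the microglia clusters, Csf1 in SAMC and Igf1 in the 2 CAM clusters. The CAM means pool brain and border libraries.

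Csf1 was carried at its highest level by SAMC at 24 h. SAMC held 875 CPM (exact 95% interval 816 to 938) in replicate 1 of brain at 24 h and 1268 (1131 to 1418) in replicate 2. At 72 h the same cluster held 19.1 (13.9 to 25.6) in 485 cells, and in pia at 24 h it held 63.9 (34.9 to 107) in 95 cells. Both brain libraries at 24 h thus lay far above the 72 h library, whose interval did not reach theirs. The mean over the 4 libraries was 557 ± 616 (SD, n = 4), so the spread between libraries was as large as the level itself, and no control library had enough SAMC to measure. The 72 h group is 1 library of the shorter gene list, and of the later kit version, so time, kit and library cannot be told apart. Replicate 2 at 24 h was of the same gene list but of the earlier kit. The cells under the SAMC label also differed in their markers. Monocyte markers summed to 47.6 and 324 in the 24 h replicates and to 1633 at 72 h. Microglia markers summed to 5078 and 2960 at 24 h and to 1289 at 72 h. Their part in the lower Csf1 at 72 h was not tested.

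Counted per cell after thinning every cell to 1000 UMIs, Csf1 was found in 40.4% of SAMC (115 of 285 cells, Clopper-Pearson 95% interval 34.6 to 46.3) in replicate 1 at 24 h and in 59.5% (44 of 74 cells) in replicate 2. The share was 2.53% at 72 h (12 of 475 cells) and 6.49% in pia at 24 h (5 of 77 cells). T cells, which served as the background for free RNA, showed 0 to 4.17% across the libraries, of which the highest was 1 of 24 cells. In the 72 h library T cells showed 1.12% (2 of 179 cells), with an interval of 0.136 to 3.98% that overlapped the 1.31 to 4.37% of SAMC. Without thinning the SAMC shares were 64.5%, 64.2%, 5.57% and 7.37% in the same order, at median depths of 3165, 1187, 4612 and 1964 UMIs per cell, and those of T cells 0 to 3.23% at medians of 892.5 to 1935. The unthinned SAMC share at 72 h thus lay above that of T cells, in cells of greater depth. In brain at 24 h a part of the SAMC carried UMIs of the ligand and its receptor together. Whether both met more often than their separate shares would give was not tested. At 1000 UMIs, 14.0% of SAMC (40 of 285 cells) in replicate 1 and 33.8% (25 of 74 cells) in replicate 2 held UMIs of both Csf1 and Csf1r, against 1.68% at 72 h and 2.60% in pia at 24 h.

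Csf1 of brain microglia was higher in each library after MCAO than in the control library. In Micro_1 the control brain library held 14.4, the 24 h replicates 46.9 and 186, and the 72 h library 243. In Micro_3 the control held 49.9, the 24 h replicates 235 and 683, and the 72 h library 366. In Micro_2 the levels were 31.1, 52.3, 230.1 and 277 in the same order. In each of these microglia clusters every brain library after MCAO lay above the control library, and unlike in SAMC none of these levels was lower at 72 h than in replicate 1 at 24 h. In Micro_3 the 72 h level was below that of replicate 2. Replicate 2 and the 72 h library, which share the shorter gene list, were the highest in all 3 clusters, and replicate 1, of the control's gene list, stood closer to the control, so the size of the difference cannot be told apart from the library. Brain CAM_1 held 28.8 in the control, 332 and 724 at 24 h and 35.5 at 72 h. Its microglia markers summed to 21625, 9922, 3612 and 1377 in the same order, and its monocyte markers to 2200 at 72 h. In pia and dura, CAM_1 lay between 3.75 and 9.50 in control and stroke libraries alike.

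Outside the microglia, SAMC and macrophage clusters, Csf1 appeared mainly in mast cells and neutrophils. In other clusters it was mostly lower, or was high in a single library. ILC2, the type 2 innate lymphoid cells, held 32.7 and 14.7 in control and stroke dura (9 UMIs each). They held 38.3 at 72 h (4 UMIs) and 0 in both pia libraries. NK cells held 41.4 in control pia (3 UMIs) and 29.5 at 72 h (6 UMIs), but 0 in stroke pia and stroke dura. Proliferating cells held 138 at 72 h (72 UMIs) but 0 and 4.69 in control and stroke dura. The cluster stress_Myeloid held 302 in replicate 2 of brain at 24 h (14 UMIs) but 0 in both pia libraries. Mast cells of the dura held 157 in the control and 202 at 24 h, and 13.5% (5 of 37) and 10.3% (8 of 78) of them held a Csf1 UMI at 1000 UMIs, where dura T cells showed 0.585% and 0%. Granulo_2, the neutrophil cluster, held 130.2 and 95.8 in the brain replicates at 24 h, 186 at 72 h and 207 in pia at 24 h. In dura the same cluster held 0 in the control, which allows up to 8.70 (3 UMIs in that sum), and 12.7 at 24 h. These levels rest on 7 to 91 UMIs per library in brain and pia and on 10 UMIs in stroke dura. At 1000 UMIs per cell the brain neutrophils with Csf1 were 15.4% (2 of 13) and 9.52% (18 of 189) at 24 h and 6.57% (9 of 137) at 72 h, and those of dura 0 of 109 in the control, which allows up to 2.75%, and 0.407% (1 of 246) at 24 h. Pia neutrophils kept 30 of 129 cells at that depth and showed 0, which allows up to 10%. At 500 UMIs they showed 6.20% (8 of 129 cells), against 0 of 146 and 1.39% (5 of 359) in control and stroke dura.

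**Figure D2:**
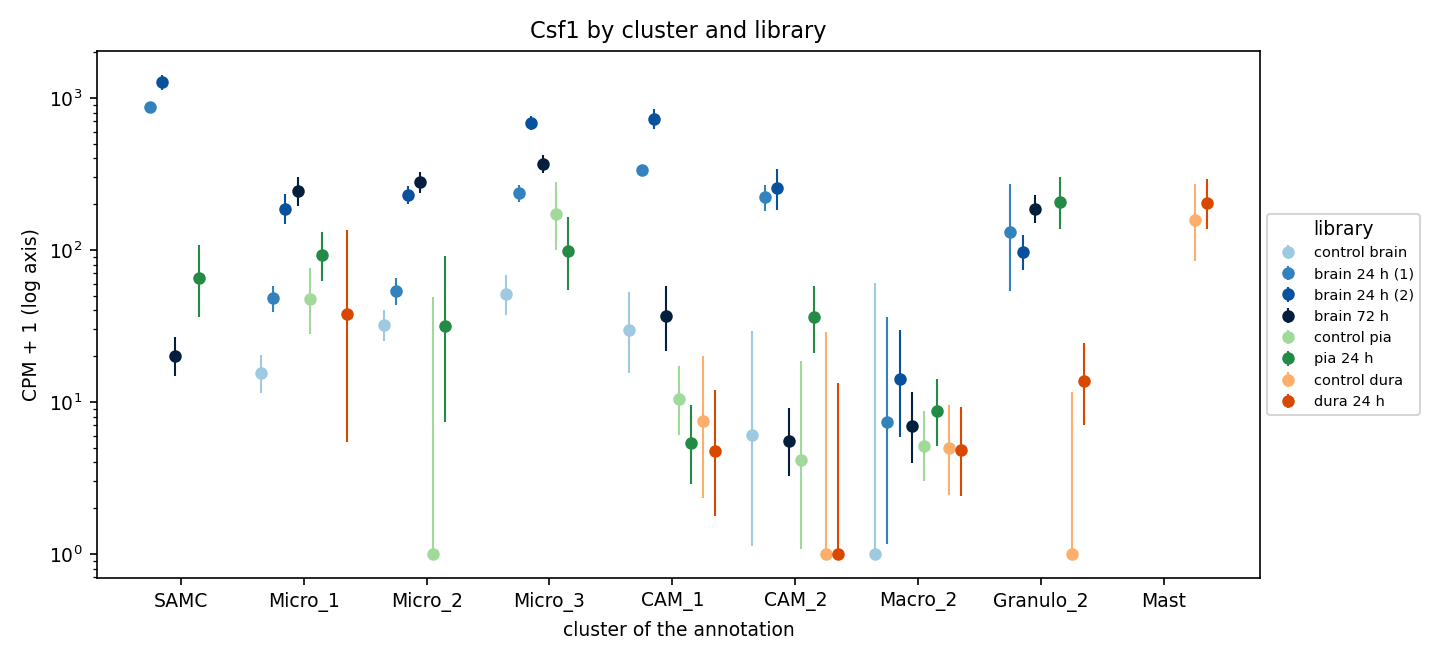
Csf1 level in CPM plus 1 (log axis) by cluster and library, with exact 95% Poisson intervals as bars, for sums of at least 30 cells. In SAMC the 2 brain libraries at 24 h stand at 875 and 1268 while the 72 h library stands at 19.1, and in CAM_1 the 4 pia and dura libraries lie at 9.50 or below.

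Because clusters differ in size, the cells that supplied most Csf1 UMIs were not always those with the highest level. All annotated cells of a library held 180 Csf1 UMIs in control brain, 1889 and 1448 at 24 h and 793 at 72 h, against 63 and 145 in control and stroke pia and 46 and 67 in control and stroke dura. Microglia clusters carried 86.7% of them in control brain, where they were 3733 of 4297 annotated cells. In replicate 1 at 24 h SAMC were 6.57% of the cells and carried 42.8% of the Csf1 UMIs (40.6 to 45.1), and in replicate 2 they were 3.46% of the cells and carried 21.3%. At 72 h SAMC were 8.02% of the cells and carried 5.55%, while microglia clusters, 17.0% of the cells, carried 62.0%. The 24 h replicates had different main holders. In replicate 1 SAMC were followed by macrophage clusters (33.1%) and microglia (22.7%), whereas in replicate 2 microglia carried 51.3% and macrophage clusters 16.2%. Of the cells, macrophage clusters were 993 of 4582 in replicate 1 and 356 of 3468 in replicate 2, and microglia 2998 and 1998. In dura, mast cells were 2.24% and 2.06% of the cells and carried 28.3% (13 of 46 UMIs) and 43.3% (29 of 67 UMIs) of Csf1 in the control and stroke library, whose intervals overlapped.

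Igf1 had a different source, the macrophages of the borders. In CAM_1 the control pia library held 153 and the stroke pia library 66.0, and the dura libraries held 319 (control) and 165 (stroke). CAM_1 of the brain held 2.62 in the control, 12.7 and 25.0 at 24 h and 16.7 at 72 h. Every border library lay above every brain library, every dura library above the pia library of the same time, and each stroke border library below its control. Microglia markers in brain CAM_1 summed to 21625, 9922, 3612 and 1377 in the order of the brain libraries above. In control brain and replicate 1 its markers went against the CAM name, so the order of border and brain compares unlike cells there. CAM_2 ordered the border libraries in the same way, with 136, 55.0, 337 and 180.3 in control pia, stroke pia, control dura and stroke dura, and so did Macro_2 with 32.0, 8.33, 99.8 and 65.7. In Macro_2 the control brain value of 16.1, from 1 UMI, lay above stroke pia. The share of CAM_1 cells with an Igf1 UMI at 1000 UMIs was 11.2% and 5.84% in control and stroke pia, and 28.0% and 13.5% in control and stroke dura. T cells of these 4 libraries showed at most 1.03%. Without thinning the CAM_1 shares were 26.1%, 12.8%, 45.1% and 33.3% at median depths of 1988 to 2518.5 UMIs, and those of T cells at most 1.59% at medians of 892.5 to 1281.

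The macrophage clusters together supplied 90.4% and 84.7% of the Igf1 UMIs of the pia libraries and 92.4% and 88.5% of those of the dura libraries. They were 1929 of 2810 and 2013 of 3922 cells in pia and 899 of 2811 and 1075 of 4518 in dura. Brain held few Igf1 UMIs, namely 5 in the control library, 94 and 32 at 24 h and 208 at 72 h. SAMC carried 51.1% of them in replicate 1 at 24 h, 18.8% in replicate 2 and 54.3% at 72 h. SAMC held Igf1 at 51.9, 24.6 and 49.0 in these libraries and 63.9 in pia at 24 h, so SAMC at 72 h held Igf1 at about the level of replicate 1 while their Csf1 was low. Micro_1 held between 0 and 22.3 in all libraries. Micro_2 of the pia held 129.7 and 51.1, but there its border-macrophage markers summed to 3450 and 2208.

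**Figure D3:**
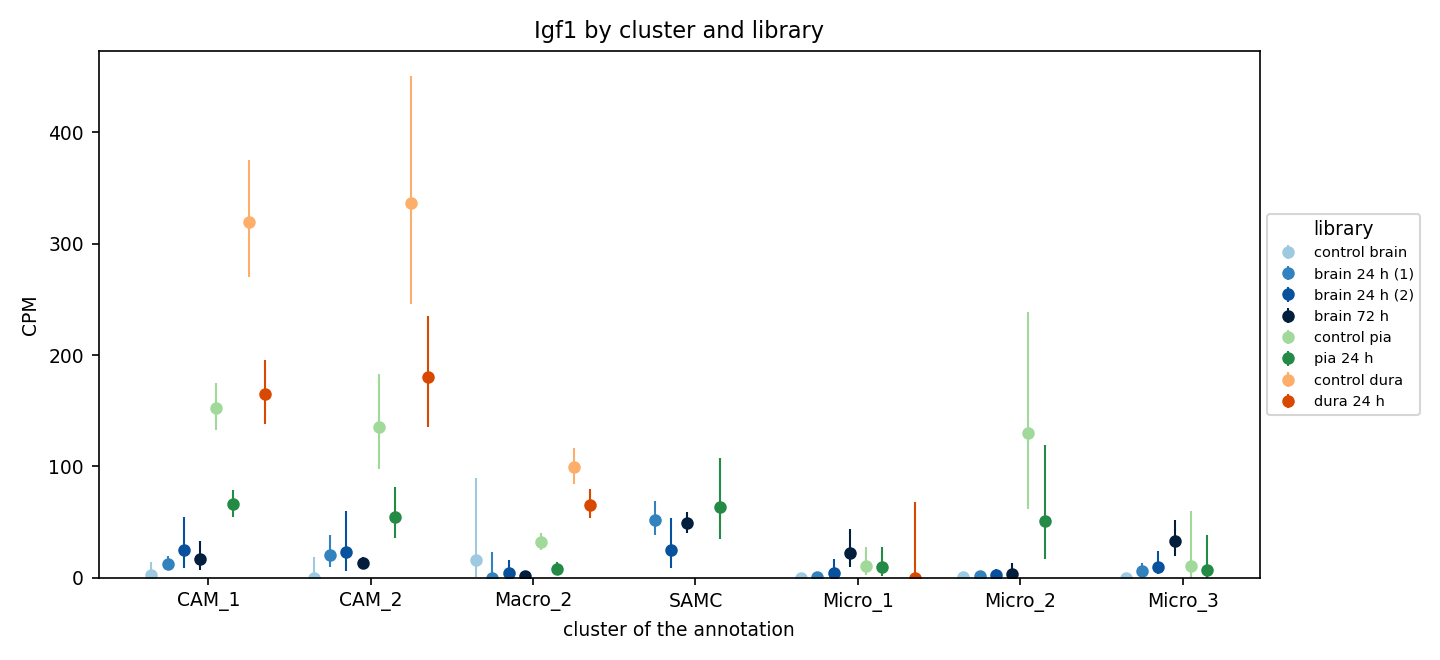
Igf1 level in CPM (linear axis from 0) by cluster and library, with exact 95% Poisson intervals as bars, for sums of at least 30 cells. In CAM_1 the dura libraries stand at 319 and 165 and the pia libraries at 153 and 66.0, above all brain libraries, of which the highest is 25.0. In control brain and replicate 1 at 24 h the markers of CAM_1 were microglial.

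Osm was a transcript of many myeloid cells in all tissues. CAM_1 held 91.7 in control brain, 163 and 254 at 24 h, 236 at 72 h, 313 and 271 in control and stroke pia, and 235 and 279 in control and stroke dura. Micro_3 held 138 in control brain, 259 and 247 at 24 h and 187 at 72 h, and 462 and 649 in pia. Granulo_1 held 647 and 217 in the brain replicates at 24 h, 251 at 72 h and between 138 and 222 in the borders. In Granulo_1 the 24 h brain replicates lay further apart than the border libraries. Neighbouring clusters in the order of means (stress_Myeloid, Micro_3, Granulo_1, Macro_1, Mast and CAM_1) differed by less than the larger SD of each pair. T cells held at most 23.4. Microglia carried 87.3% of the Osm UMIs in control brain, 42.7% and 29.9% at 24 h and 10.2% at 72 h, where Granulo_1 carried 42.6%. In control and stroke pia CAM_1 alone carried 40.1% and 40.8%. Microglia were 3733 of 4297 annotated cells in control brain, 2998 of 4582 and 1998 of 3468 at 24 h and 1027 of 6049 at 72 h. Granulo_1 were 1315 of the 6049, and CAM_1 were 574 of 2810 and 859 of 3922 in control and stroke pia. The part of cell numbers in these Osm shares was not tested.

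**Figure D4:**
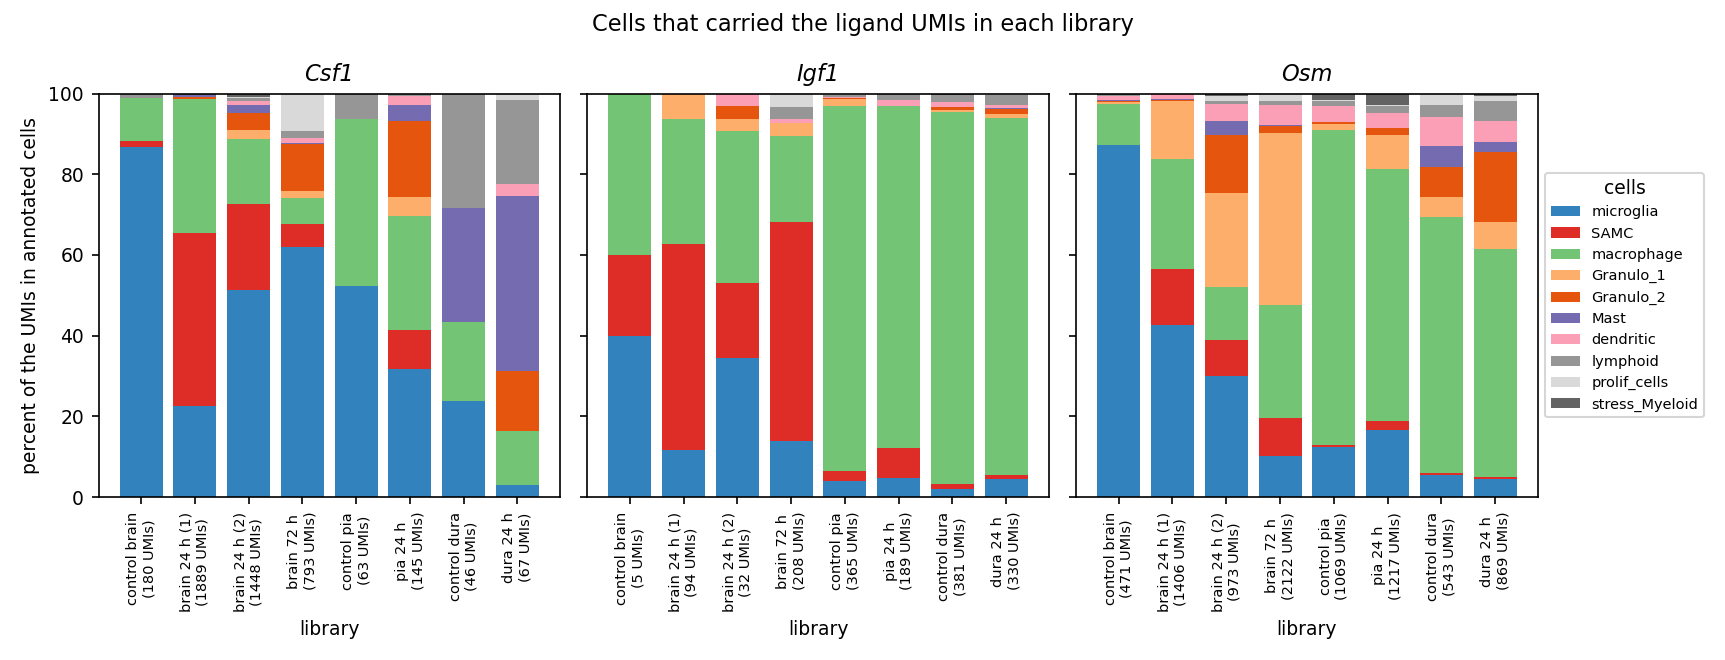
Percent of the Csf1, Igf1 and Osm UMIs in annotated cells (y axis) that each class of cells carried in each library (bars, with the total UMIs below). Csf1 lay in microglia in control brain (86.7%) and in SAMC, macrophage and microglia clusters at 24 h, border Igf1 lay in macrophage clusters (84.7 to 92.4%), and Granulo_1 held 42.6% of the 72 h Osm. Bars are not scaled to the number of cells in a class.

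Tgfb1 was held by every cluster, with means of 59.0 to 321. The highest were 321 ± 129 (SD, n = 7) in Granulo_1, 316 ± 107 (n = 5) in ILC2, the type 2 innate lymphoid cells, and 290.0 ± 83.3 (n = 6) in NK cells, and these neighbours differed by less than their SDs. Micro_1 held 236 ± 64.8 (n = 7), with 276 in control brain, 247 and 266 at 24 h and 335 at 72 h. The lowest means were 60.5 ± 28.5 (n = 6) in Granulo_2 and 59.0 ± 15.2 (n = 2) in mast cells. The gap between T cells (138 ± 42.7, n = 8) and Granulo_2 was the one step in the order larger than both SDs. Microglia carried 90.5% of the Tgfb1 UMIs in control brain, macrophage clusters 65.8% in control pia and lymphoid clusters 35.5% and 44.6% in control and stroke dura. In the same order these classes were 3733 of 4297 annotated cells, 1929 of 2810, 1099 of 2811 and 2346 of 4518.

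Pdgfb divided libraries rather than conditions. In Micro_1 it held 48.3 in control brain and 39.7 in replicate 1 at 24 h, but 505 in replicate 2 and 323 at 72 h, and Micro_2 held 48.4, 44.1, 530.2 and 623 in the same order. After thinning to 1000 UMIs, 4.38%, 3.69%, 32.8% and 25.2% of Micro_1 cells held a Pdgfb UMI. Without thinning the shares were 7.51%, 5.49%, 32.4% and 37.4% at median depths of 1628, 1471, 805 and 1581.5 UMIs, and T cells of these libraries held at most 7.52% unthinned and 4.04% thinned. The replicates of brain at 24 h thus lay on opposite sides, and the high pair were the libraries counted against the shorter gene list. Gene list, library and time cannot be told apart for Pdgfb, and no change with stroke is read from it. SAMC of replicates 1 and 2 held 37.9 and 464 and those of the 72 h library 18.7, which was thus not high in every cluster. Without replicate 1 of brain at 24 h, edgeR called Pdgfb higher at 24 h in dendritic clusters (log2 difference 3.59, SE 1.06, adjusted p = 0.0424), where replicate 2 held 56.9, replicate 1 held 0, and control and stroke held 1.98 and 3.37 in pia and 0 and 10.5 in dura. The difference was 3.45 (SE 1.55) with all libraries and was not called by edgeR (adjusted p = 1).

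Among the receptors, Csf1r marked microglia first. Micro_1 held 2551 in control brain, 2282 and 3756 at 24 h, 2797 at 72 h, 1595 and 1101 in control and stroke pia, and 462 in stroke dura, where only 36 cells bore the label. CAM_1 held 1927, 1241, 1406 and 694 in these brain libraries and between 767 and 1102 in the borders. SAMC, the cells with the most Csf1, held less Csf1r than CAM_1, with 602 and 924 at 24 h, 372 at 72 h and 694 in pia. The step from CAM_1 (1105 ± 413, n = 8) to SAMC (648 ± 228, n = 4) exceeded both SDs. That CAM_1 mean pools brain and border libraries. Granulo_1 followed with 420.0 ± 156 (n = 7) and the dendritic clusters mDC1 and mDC2 with 119 ± 84.6 and 125 ± 54.2 (n = 6 each). T cells held 0 to 124, of which the highest value rested on 5 UMIs. At 1000 UMIs, 91.1% of Micro_1 cells in control brain held a Csf1r UMI and 0 to 12.1% of T cells did. Without thinning these shares were 97.4% at a median of 1628 UMIs and 0 to 19.5%.

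The chains of the GM-CSF receptor had overlapping but different carriers. Csf2ra was highest in stress_Myeloid, in Granulo_1 (485 ± 252, n = 7) and in Macro_2 (398 ± 168, n = 8), then in mDC2 (378 ± 142, n = 6), SAMC (341 ± 126, n = 4) and mDC1 (331 ± 179, n = 6), and T cells held 14.0 ± 8.10 (n = 8). Csf2rb was highest in mast cells (232 ± 106, n = 2), with 157 in control dura and 307 at 24 h. mDC1 followed with 196 ± 103 (n = 6), and mast cells, mDC1 and mDC2 (179.7 ± 117, n = 6) differed by less than their SDs. Mouse Csf2rb (chr15:78325752-78353847, GRCm38) lies beside its near-identical copy Csf2rb2 (chr15:78282507-78305721), and reads may be split between them. Csf2rb2 was the gene whose pattern was most like that of Csf2rb, with r = 0.83 over the 112 sums of library and cluster.

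Csf3r was a receptor of neutrophils and, at lower level, of microglia. Granulo_2 held 484 and 592 in the brain replicates at 24 h, 709.9 at 72 h and 497 in pia at 24 h, but 72.5 and 113 in control and stroke dura. Summed levels in neutrophils of brain and pia therefore lay above those of dura in every library, as they did for Csf1 and for Csf1r (70.2 to 130.0 in brain and pia, 11.6 and 12.7 in dura). Their neutrophil markers summed to 122280 to 307760 in brain and pia and to 203570 and 215130 in dura. Monocyte markers in Granulo_2 summed to 3384 to 5738 in brain and pia and to 8645 and 9549 in dura. Markers of cycling cells summed to 0 to 314 in brain and pia and to 351 and 269 in dura. The part of these cells in the difference was not tested. Micro_1 held 189 in control brain, 278 and 298 at 24 h, 189.6 at 72 h and 115 and 119.5 in pia.

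Tgfbr1 was mostly a microglial transcript. Micro_1 held 374 in control brain, 446 and 948 at 24 h, 499 at 72 h, 249 and 271 in pia and 166 in stroke dura, and stress_Micro held 871 and 488 in replicate 2 and at 72 h. CAM_1 held 343, 137, 337 and 179.7 in the brain libraries and 41.3 to 58.2 in the borders, so every brain library lay above all border libraries. Microglia markers in brain CAM_1 summed to 21625, 9922, 3612 and 1377 in the same order. T cells held 6.22 to 49.6. Its pattern over the sums was most like that of Cx3cr1 (r = 0.88), the fractalkine receptor of microglia.

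To ask whether any member changed with stroke or differed between the borders, UMIs were summed per library over classes of clusters and compared between libraries with edgeR's quasi-likelihood test, with tissue and time as terms. Calls had a Benjamini-Hochberg adjusted p under 0.05 over all genes tested. Libraries of 1 group are not known to come from separate mice. Only brain at 24 h had 2 libraries, so the p-values rest on their spread and on how differently the tissues changed. Without either of them, or in pia and dura alone, no group was replicated. The p-values of those fits measure how alike the tissues changed, by a spread shared across genes. In bulk sums of a class, fewer cells of one type and less RNA per cell cannot be told apart. With all libraries, edgeR called 0 of the 8 to 10 members that passed the count filter in any of 8 comparisons. It called 0% of 10887 genes at 24 h in macrophage clusters, where 468 genes had an unadjusted p under 0.05 and DESeq2 called 17. It called 0% of 10887 genes between dura and pia there (205 with such a p, and 7 by DESeq2), 0% of 10213 genes at 24 h in microglia (223 and 8), 0% of 9023 in dendritic clusters (218 and 2) and 0% of 5883 in Granulo_1 (168 and 4). It called 0.0332% of genes between dura and pia in dendritic clusters and 0.0223% in each lymphoid comparison. DESeq2 called none of the members either. In 1 simulated data set per class, 200 genes with a mean count above 10 were changed 4-fold at 24 h. Of these, edgeR recovered 33.5% in macrophage, 17% in microglia and 32% in dendritic clusters. It recovered 66.5% in lymphoid clusters and 1% in Granulo_1. Of its calls 33.3% were false in Granulo_1, where calls were very few, and 6.94% to 9.52% in the other classes. Genes of lower counts were not among those changed, so the recovery of such genes is not known. A lack of calls therefore does not show that a gene was unchanged.

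The low number of calls depended on the replicates of brain at 24 h. Without replicate 2, macrophage clusters had 353 called genes at 24 h (3.3% of those tested), microglia 499 (6.16%), dendritic clusters 200 (2.28%), lymphoid clusters 237 (2.81%) and Granulo_1 108 (2.04%). Between dura and pia it then called 1.4% in dendritic and 3.61% in lymphoid clusters. Without replicate 1, dendritic clusters had 209 called genes at 24 h (2.35%) and 126 between dura and pia (1.42%), and Granulo_1 had 112 (1.54%). Fits restricted to the 6 libraries of the longer gene list, or to the 4 libraries of pia and dura, were added after the data had been seen. The former called 1.79% of genes at 24 h in macrophage clusters and 0.912% between dura and pia in dendritic clusters, and the latter 6.74% at 24 h and 6% between dura and pia in macrophage clusters and 1.5% and 1.04% in these comparisons of dendritic clusters. The fit of the 4 border libraries had 1 residual degree of freedom and leans on the spread shared across genes. Stroke dura was its only library of the later kit, so kit version enters all its comparisons.

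Csf2rb was higher after stroke in macrophage clusters. Its level was 12.1 in control brain, 58.8 and 188 at 24 h and 197 at 72 h, then 24.6 and 53.0 in control and stroke pia and 28.4 and 64.6 in control and stroke dura. All 4 libraries at 24 h lay above all 3 control libraries. In brain, replicate 2 and the 72 h library, which share the shorter gene list, were the highest, and replicate 1 stood closer to the control. The size of the brain difference therefore cannot be told apart from the library. Reads may also be split between Csf2rb and its copy Csf2rb2. The cells of the class differed between the brain libraries. In control brain CAM_1 and CAM_2 were 221 and 171 of its 440 cells, with microglia markers at 21625 and 28382. At 72 h CAM_2 and Macro_2 were 642 and 570 of 1497 cells, with microglia markers at 1185 and 692. Their monocyte markers summed to 2004 and 1600. The part of these cells in the brain levels was not tested. Stroke dura was also of the later kit version. The log2 difference was 1.73 (SE 0.59) with all libraries, which edgeR's quasi-likelihood test did not call (adjusted p = 0.984). It was 1.28 (SE 0.22) in the longer-list libraries (edgeR, adjusted p = 0.0386), 1.29 (SE 0.22) without replicate 2 of brain at 24 h (edgeR, adjusted p = 0.0215) and 1.07 (SE 0.17) in pia and dura alone (edgeR, adjusted p = 0.00655). With no low-count filter it was 1.74 (SE 0.46) over all libraries (edgeR, adjusted p = 0.0444), where 0.382% of genes were called. It ran from 1.10 without control brain to 2.17 without stroke pia, with all other libraries kept, and edgeR called neither (adjusted p = 1 in both). CAM_1, CAM_2 and Macro_2 each held more in the stroke than in the control library of pia and of dura, for example 30.0 and 51.9 in CAM_1 of pia and 23.7 and 57.6 in CAM_1 of dura. Monocyte markers in CAM_1 summed to 10.2 and 35.5 in these pia libraries and to 36.7 and 70.1 in these dura libraries, and neutrophil markers to 26.3 and 62.2 and to 211 and 372. Their part in the result was not tested. Lymphoid clusters held 10.7 and 11.6 Csf2rb in pia and 1.49 and 6.28 in dura. The share of macrophage-class cells with a Csf2rb UMI at 1000 UMIs was 2.47% and 5.38% in pia and 2.72% and 5.60% in dura, against 0 to 5.56% in B cells, whose upper value was 1 of 18 cells. Without thinning the shares were 4.98%, 8.94%, 6.56% and 14.0% at medians of 1903 to 2435 UMIs, and 1.31 to 5% in B cells of these libraries at medians of 810.5 to 1015.

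Igf1 in the same clusters moved the other way in the borders, where stroke dura also differed from control dura in kit version. Macrophage clusters held 79.7 in control pia and 39.8 at 24 h, and 161 in control dura and 107 at 24 h, while in brain they held 3.02 in the control, 13.3 and 13.4 at 24 h and 8.89 at 72 h. Within pia and dura, Igf1 fell by 0.85 on the log2 scale at 24 h (SE 0.16, adjusted p = 0.0131 by edgeR's quasi-likelihood test) and was higher in dura than in pia by 1.24 (SE 0.16, adjusted p = 0.00116 by edgeR). With all libraries the differences were -0.24 (SE 0.54) and 1.19 (SE 0.60), and neither was called by edgeR (adjusted p = 0.995 and 1). The difference of dura from pia was 0.58 without stroke pia and 2.06 without control pia, neither of which edgeR called (adjusted p = 1). The border-macrophage markers of CAM_1 also summed lower at 24 h, from 6202 to 4523 in pia and from 6953 to 4771 in dura, and their part in the lower Igf1 was not tested. Between dura and pia these marker sums differed by less than between control and stroke.

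Csf1 in macrophage clusters held 28.7 in control brain, 287 and 261 at 24 h and 10.5 at 72 h, while the 4 border libraries held between 3.30 and 10.2. The log2 difference at 24 h over all tissues was 1.37 (SE 0.70), which edgeR did not call (adjusted p = 0.984). The high values were those of brain clusters whose marker genes in the control and in replicate 1 were microglial. In microglia clusters Csf1 held 25.6 in control brain, 87.2 and 323 at 24 h and 300.2 at 72 h, then 61.5 and 82.1 in pia and 167 and 15.0 in dura, where 51 and 76 cells bore microglia labels. The control dura value rests mainly on 10 UMIs in 8 Micro_3 cells, so no direction is read in dura. The log2 difference of Csf1 in microglia clusters was 0.53 (SE 0.99), also not called by edgeR (adjusted p = 1.00).

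Csf1r separated the dendritic clusters of the borders. They held 141 and 111 in control and stroke pia against 36.0 and 56.8 in control and stroke dura, and the brain libraries held 70.7 and 162 at 24 h and 230.1 at 72 h. The log2 difference of dura from pia was -1.46 (SE 0.56) with all libraries and was not called by edgeR (adjusted p = 1). It was -1.43 (SE 0.29) both in the longer-list libraries (edgeR, adjusted p = 0.0237) and in the 4 border libraries (edgeR, adjusted p = 0.0184). It was called as well without replicate 1 of brain at 24 h (-1.43, SE 0.27; edgeR, adjusted p = 0.000162) and without replicate 2 (-1.44, SE 0.27; edgeR, adjusted p = 0.000593). It was -0.85 and -0.86 without control dura or control pia and -2.10 and -2.09 without stroke dura or stroke pia, and edgeR called none of these (adjusted p = 1 in each). Both dendritic clusters had this order, with 157 and 108 in pia and 18.8 and 33.7 in dura for mDC1, and 136 and 115 against 53.3 and 76.2 for mDC2. Border-macrophage markers in mDC1 summed to 337 and 57.7 in the pia libraries and to 56.4 and 60.2 in the dura libraries. Microglia markers summed to 853 and 215 in pia and 490 and 346 in dura for mDC1. For mDC2 they summed to 630.0 and 278 and to 456 and 444. Monocyte markers in mDC1 summed to 947 and 1369 in pia and to 1753 and 1161 in dura. Its dendritic markers summed to 501 and 1196 in pia and to 1064 and 556 in dura. The part of these cells was not tested. In lymphoid clusters, which should lack the receptor, Csf1r held 32.2 and 39.2 in pia and 19.4 and 14.1 in dura, a log2 difference of -1.10 that edgeR did not call in the 4 border libraries (adjusted p = 0.0901), where it called 3.13% of genes. Without replicate 2 of brain at 24 h the lymphoid difference was -1.11 (SE 0.35) and was called (edgeR, adjusted p = 0.0413). The part of free RNA in the dendritic difference was not tested.

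**Figure D5:**
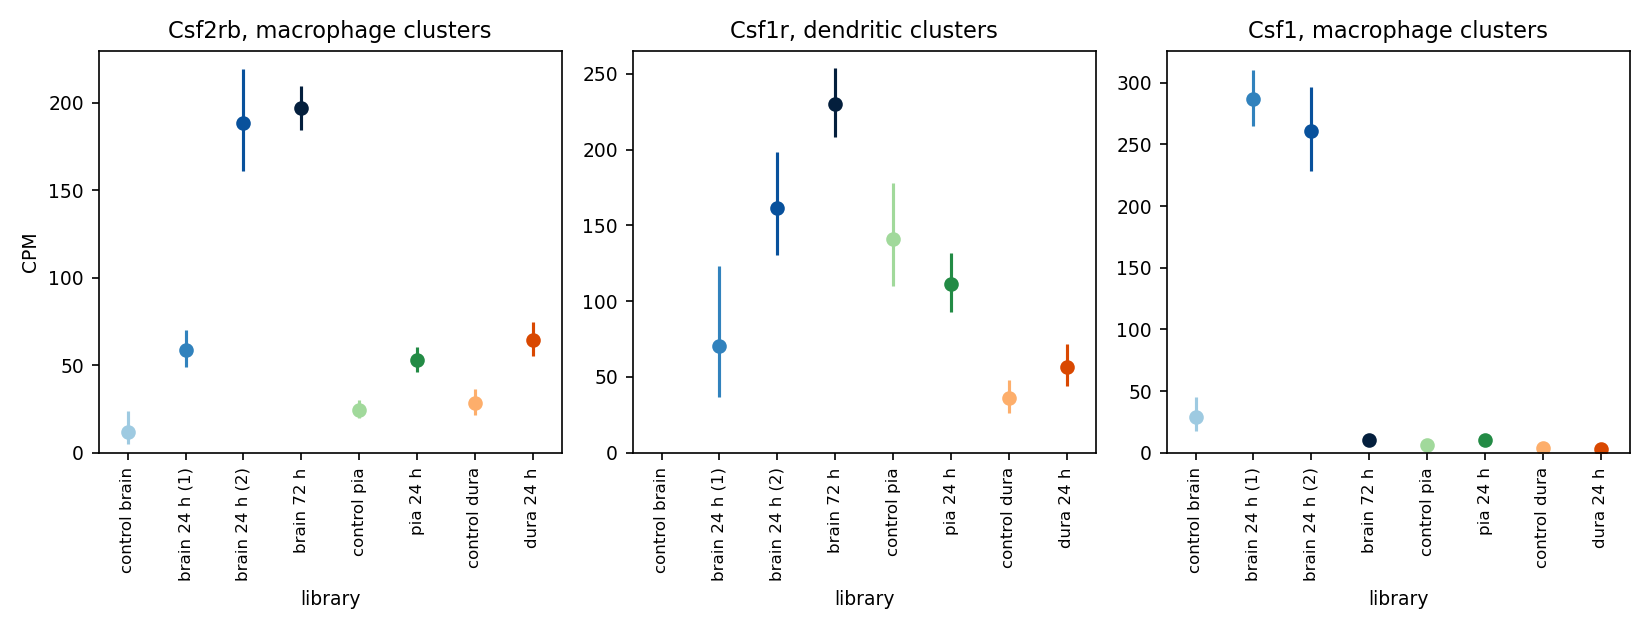
CPM (y axes from 0) of Csf2rb in macrophage clusters, Csf1r in dendritic clusters and Csf1 in macrophage clusters by library, with exact 95% Poisson intervals as bars. Csf2rb is higher in each stroke library than in the control of its tissue, Csf1r is lower in dura (36.0 and 56.8) than in pia (141 and 111), and Csf1 is high (287 and 261) in brain at 24 h alone. Control brain had too few dendritic cells for a value.

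The wider pathway list held 65 other ligands, receptors and signalling genes, of which 29 to 49 passed the count filter in a comparison, and edgeR with all libraries and the filter called none of them. DESeq2 called Igfbp6 higher at 24 h in macrophage clusters (3.29, SE 0.72, adjusted p = 0.0043). With no low-count filter edgeR called Igfbp6, Gdf15 and Thbs1 higher at 24 h in macrophage clusters, Gdf15 and Igfbp5 higher in dura than in pia there (0.306% of genes called), Igfbp6 higher at 24 h in Granulo_1 (0.0623%) and Csf2 higher at 24 h in lymphoid clusters (0.0584%). In the 4 border libraries 7 of the 44 tested passed at 24 h in macrophage clusters, 5 higher and 2 lower, where 6.74% of all genes passed, with a median log2 difference of -0.032 against -0.0066 over all genes. Between dura and pia 8 of 44 passed, 4 in each direction, where 6% of all genes passed, with medians of 0.011 and 0.0011. Higher at 24 h were Csf3, Hbegf, Gdf15, Igfbp6 and Tgfbi, and lower were Bmp2 and Igfbp4, named here after their values were seen. Csf3 encodes the ligand of Csf3r. In CAM_1 it held 9.50 and 45.3 in control and stroke pia and 28.0 and 50.1 in control and stroke dura, and the class difference was 1.81 (SE 0.24, adjusted p = 0.00271 by edgeR). Igfbp6, an IGF-binding protein, differed by 3.01 (SE 0.33, adjusted p = 0.000838 by edgeR), and was also higher in dendritic clusters by 3.32 (SE 0.64, adjusted p = 0.0114 by edgeR, 1.5% of genes called). It is known from fibroblasts, and the fibroblast markers in CAM_1 summed to between 6.58 and 38.8 in the border libraries. Their part in the result was not tested.

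By the rule of highest mean level, the ligands to describe were Mif, Areg and Csf2. Mif, a macrophage cytokine, held 288, 271, 657 and 402 in SAMC of the replicates at 24 h, 72 h and pia. Areg, an epidermal growth factor receptor ligand, was an ILC2 transcript, at 307 in brain at 72 h, 1732 and 1392 in control and stroke pia and 1677 and 1443 in control and stroke dura, while the next cluster averaged 41.9. Csf2, the ligand of Csf2ra and Csf2rb, was also held by ILC2. Its level in these cells was 47.9 in brain at 72 h (5 UMIs), 279 in control pia (10 UMIs), 2397 in pia at 24 h (241 UMIs), 675 in control dura (186 UMIs) and 1988 in dura at 24 h (1214 UMIs). Both border tissues thus held more at 24 h, in 33 and 85 ILC2 of pia and 286 and 673 of dura, with exact intervals that did not overlap between control and stroke (134 to 514 and 2104 to 2719 in pia, 582 to 780 and 1878 to 2103 in dura). Each of these is 1 library, so the difference has no replicate check within a tissue, and in dura it cannot be told apart from kit version. In the sum of lymphoid clusters, which holds the ILC2, Csf2 was 0 in control brain, 70.8 (7 UMIs) and 2.24 (2 UMIs) in the brain replicates at 24 h, 26.8 and 351 in control and stroke pia and 147 and 484 in control and stroke dura. Its log2 difference at 24 h was 2.63 (SE 0.83) with all libraries, which edgeR did not call (adjusted p = 1.00), and 2.64 (SE 0.52) with no low-count filter (edgeR, adjusted p = 0.000955). Without replicate 2 of brain at 24 h it was 2.23 (SE 0.20), which edgeR called (adjusted p = 4.25e-15), and in the 4 border libraries it was 2.19 (SE 0.65), which it did not call (adjusted p = 0.492). Mast cells of dura held 12.1 Csf2 in the control (1 UMI) and 216 at 24 h (31 UMIs), beside their own high Csf2rb.

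The receptors with the highest means were Il6ra, Tgfbr2 and Nrp1, and among binding and signalling genes Skil, Tgfbi and Socs3. Il6ra, the interleukin 6 receptor, was highest in Micro_2, Nrp1 in CAM_2, and Skil, a repressor of TGF-beta signalling, in stress_Micro. Tgfbi, a matrix protein induced by TGF-beta, held 354 and 1553 in Granulo_1 of control and stroke pia and 376 and 887 in that of control and stroke dura. The monocyte markers of Granulo_1 summed to 742 and 6052 in pia and to 8934 and 7983 in dura. Its microglia markers summed to 1384 and 230 in pia and to 211 and 346 in dura. Receptors for some ligands were scarce among leukocytes. All libraries together held 13 UMIs of Osmr, the oncostatin M receptor chain, and 28 of Pdgfrb and 8 of Pdgfra, the receptors of platelet-derived growth factors. Of the ligands, Il34 had 14 UMIs and Il3 had 0. The Igf1 receptor gene Igf1r held 1351 UMIs, of which 508 and 398 lay in the shorter-list libraries.

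The genes whose patterns over the 112 sums were most like those of the members give a last description, without a test, since these sums share libraries and depth. Igf1 was most like Cbr2 (r = 0.82), Epor (0.81) and Pla2g2d (0.80), and Csf1 most like Adamts1 (0.77), Fat3 (0.74) and Slc24a3 (0.74). Csf1r was most like Trem2 (0.93), Fcgr1 (0.92) and Itgb5 (0.92), of which Trem2 is a lipid-sensing receptor of microglia and macrophages. Osm was most like Tlr2 (0.78), Nlrp3 (0.77) and Hmox1 (0.75), and Csf2ra most like Skap2 (0.90), Alox5ap (0.86) and Spi1 (0.86). Pdgfb was most like Dst (0.90), Ank2 (0.90) and Nav3 (0.89), Csf3r like Tlr13 (0.80), Lamp2 (0.79) and Vsir (0.79), and Tgfb1 had no close match, with Eprs (0.58) as its nearest. Among the members themselves, the pair most alike was Csf1r and Tgfbr1 (r = 0.78).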

How the data were processed

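Per the labels, 10x Chromium 3′ libraries (version 2 and 3 chemistry) were processed by the authors with Cell Ranger 6.0 on mm10. The deposited counts are whole UMIs per gene and cell with a table of cluster labels, which were used as given. UMIs were summed per library and cluster (at least 30 cells) or class of clusters over identifiers in all libraries. Counting intervals are exact 95% Poisson or Clopper-Pearson intervals. Doublets were not called again. Class sums were fitted with edgeR 4.0.16 (R 4.3.3; TMM, filterByExpr, quasi-likelihood test, two-sided) on tissue and time over all libraries with at least 30 cells, after a test on simulated data. The SE printed with an edgeR result was back-calculated, as the absolute log2 difference over the square root of the F statistic. That of DESeq2 is its own estimate. The lone library of a group is assumed to vary like the others. DESeq2 1.42.0, no filter, library size scaling, 10 cells, kit version, and each library left out were tried as alternatives, and 2 library subsets and a brain term were added after seeing the data. Named genes were the 10 members, pathway genes called, the 3 highest pathway genes per role, and the 3 genes of highest Pearson r of log2(CPM + 10) per member. Members and lists were chosen with earlier results of these data known. Gene positions come from GENCODE M21 (GRCm38), where antisense genes overlap Igf1, Pdgfb and Csf1r.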

Additional observations from a re-analysis of the deposited data

Results flagged for a closer look

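The 10 members were screened in macrophage, microglia and lymphoid clusters for opposite changes in brain and borders. In 4 cases, both 24 h brain libraries differed from control brain in the same direction, and both border tissues differed oppositely from their controls. Some of these cases rest on 0 to 2 UMIs in a library. How often all genes show this pattern was not counted, so the 4 cases are not read as a result about the members. Igf1 in macrophage clusters went from 3.02 to 13.3 and 13.4 CPM in brain, from 79.7 to 39.8 in pia and from 161 to 107 in dura. The difference between the brain and border changes was 2.85 on the log2 scale (adjusted p = 1 by edgeR's quasi-likelihood test with a term for brain at 24 h). The control brain value rests on 2 UMIs, so its size is uncertain. In control brain and replicate 1 the markers of CAM_1, a part of this class, were microglial, unlike in the borders. Igf1 in microglia clusters went from 0.328 to 2.23 and 4.79 in brain, from 27.9 to 16.1 in pia and from 122 to 112 in dura, a difference of 3.32 (edgeR, adjusted p = 1). The control brain value again rests on 2 UMIs and the dura values on 8 and 15. Micro_2 held 10 and 5 of the UMIs in control and stroke pia and 4 and 12 in control and stroke dura. In pia this cluster also carried border-macrophage markers, whose part in the difference was not tested. Csf3r in microglia clusters went from 184 to 237 and 236 in brain, from 114 to 99.9 in pia and from 15.2 to 15.0 in dura, a difference of 0.286 (edgeR, adjusted p = 1). The dura values rest on 1 and 2 UMIs, so no direction is read in dura. Osm in lymphoid clusters went from 11.4 to 0 and 7.83 in brain, from 32.2 to 33.4 in pia and from 11.2 to 17.3 in dura, a difference of -0.981 (edgeR, adjusted p = 0.941). Control brain held 1 UMI and the 24 h replicates 0 and 7, so no direction is read in brain. None of these passed the adjusted threshold, and the macrophage fit called 0 of 10887 genes for this difference.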

How the results depend on the processing

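The levels of Csf1 in SAMC, Csf1r and Tgfbr1 in Micro_1, Csf2ra and Tgfb1 in Granulo_1, Csf2rb in mDC1, Csf3r in Granulo_2, Igf1 in CAM_2, Osm in Micro_3 and Pdgfb in Micro_2 stayed within 1 SD under the alternatives run. This SD was taken over the same libraries, so leaving 1 of them out could not move the mean past it. That part of the check had a fixed outcome and does not show that the levels were stable. With a library left out, the level of Csf1 in SAMC ran from 319 to 736. For Osm, Csf2ra, Csf2rb and Tgfbr1 another cluster, with 2 or 3 libraries, had a higher mean. Genes called differed, in the order macrophage at 24 h, macrophage dura against pia, microglia, dendritic at 24 h, dendritic dura against pia, lymphoid at 24 h, lymphoid dura against pia and Granulo_1. DESeq2 called 17, 7, 8, 2, 1, 0, 1 and 4, no low-count filter gave 70, 56, 16, 5, 22, 10, 21 and 10, the longer gene list 169, 79, 321, 107, 73, 116, 181 and 123, and pia and dura alone 619, 551, 0, 104, 72, 110, 231 and 0. A minimum of 10 cells gave 5 dendritic genes between dura and pia. Kit version 2 alone gave 1 dendritic gene at 24 h and 0 in the dendritic and lymphoid border comparisons and in lymphoid at 24 h. Leaving out 1 library gave 0 to 353, 0 to 110, 0 to 499, 0 to 209, 0 to 126, 0 to 237, 0 to 305 and 0 to 112. Members called rose from 0 to 1 in macrophage at 24 h without the filter and with the longer list and to 2 in pia and dura alone, to 1 in macrophage dura against pia in pia and dura alone, and to 1 in dendritic dura against pia in both subsets, with 0 to 1 when a library was left out. The log2 difference of Igf1 in macrophage clusters at 24 h was 0.078 with kit version 2 alone and ran from -0.84 to 0.39 with a library left out. It turned positive without any one border library, which leaves that tissue without a contrast. The log2 difference of Csf1 in microglia was -0.46 in pia and dura alone and ran from -1.04, without control brain, to 1.71. That of Csf1r in macrophages between dura and pia ran from -0.74 to 0.033, without control dura. After thinning, SAMC carried 35.0% of Csf1 UMIs in replicate 1 at 24 h. At 500 UMIs the SAMC shares with Csf1 were 25.9% and 45.0%, and unthinned 64.5% in replicate 1. The CAM_1 share with Igf1 in control dura was 14.6% at 500 UMIs and 45.1% unthinned, and that of Micro_1 with Csf1r in control brain 71.5% and 97.4%. No paired analysis was possible because the labels give no replicate numbers shared between groups. The cause of these changes was not tested beyond the libraries or cells each alternative removes.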
